A study of Homo sapiens with 12 samples.

Results

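The transcripts examined here are 9 genes of the TGF-beta and SMAD pathway, namely the ligands TGFB1 and TGFB2, the receptors TGFBR1 and TGFBR2, the signal transducer SMAD3, the inhibitory SMADs SMAD6 and SMAD7, the co-repressor SKIL and the target gene ID1. They were picked by name from the gene symbols of 2 RNA-seq tables, and all 9 were found among the 29657 genes listed for SCC15 and among the 31055 listed for SCC25. SCC15 and SCC25 are cell lines of human head and neck squamous cell carcinoma, labelled wild type (WT). In each line 3 libraries came from cells given ACGs (annonaceous acetogenins, here the compound squamocin at 10 µg/mL) and 3 from cells given the solvent DMSO, all harvested after 24 h. The 12 libraries therefore form 4 groups, with 1 dose, 1 time point and no untreated cells, and nothing in the labels says that the 3 libraries of a group are separate cultures, so every p-value measures the spread between libraries only, which may be technical.

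TGF-beta ligands bind a pair of receptor kinases, of which TGFBR2 binds the ligand and then activates TGFBR1, which in turn phosphorylates SMAD2 and SMAD3. These join SMAD4, enter the nucleus and switch target genes on or off, while the related BMP ligands work through SMAD1, SMAD5 and SMAD9 and induce the ID genes. The pathway is held back by feedback inhibitors, among them SMAD7, SMAD6 and SKIL, and in squamous epithelium it is known both for halting cell division and for driving invasion.

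Depth ran from 16665563 to 22748845 reads per library, recovered from the deposited values. The library labelled SCC15 ACGs replicate 3 stood apart, with a chi-square per degree of freedom of 71.6 and 63.5 against replicates 1 and 2 of its group, whereas the other 10 pairs of replicates lay between 1.72 and 11.0. Values without it are given below for only some of the SCC15 results. Without it the SCC15 log2 fold change of TGFB1 was 0.45 in place of 0.55. That of TGFBR2 was -0.51 in place of -0.60, and that of SMAD7 0.68 in place of 0.59. Of the 9 genes only SMAD3 changed its call in SCC15. Of 8 squamous epithelial markers, all 8 reached a mean of 10 normalized counts in SCC25 and 6 in SCC15, where the keratin KRT5 (means of 9.50 with DMSO and 5.41 with ACGs) and the desmosomal cadherin DSG3 (1.44 and 1.19) did not, and the squamous regulator TP63 stood at only 17.5 and 10.5. In SCC15 3 squamous markers were called higher, 0 lower and 3 neither way, where 30.9% of all genes were called higher and 30.0% lower. With library totals set equal, a scaling described below, 2 were higher and 3 lower there. In SCC25 5 were called higher and 2 lower (38.3% and 38.5% of all genes). The lower were KRT5 (log2 fold change -0.25) and CDH3 (-0.88), so the squamous markers had no shared direction in SCC25. Their summed level went from between 112763 and 119035 to between 208499 and 362737 in SCC15, where it was mostly KRT17 (203624, 222988 and 354162 with ACGs, the last in replicate 3), and from between 31783 and 32236 to between 50639 and 53876 in SCC25. The share of normalized counts on mitochondrial genes was 1.69% to 1.73% with DMSO and 0.796% to 0.959% with ACGs in SCC15, and 4.37% to 4.54% against 2.45% to 3.5% in SCC25, and the part of these shifts in the results below was not tested.

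Some markers of other cell types moved with ACGs as well, the endothelial ones and CD14 most in SCC25, the line in which ID1 and SMAD6 fell furthest. There the summed level of 5 endothelial markers went from between 235 and 296 normalized counts to between 19.8 and 37.7, with PECAM1, CDH5 and VWF called lower, at log2 fold changes of -4.79, -3.59 and -1.20. The summed level of 6 leukocyte markers went from between 401 and 489 to between 82.6 and 111. That fall was the fall of CD14 (log2 fold change -5.98), from a mean of 351 to 4.81. The other leukocyte markers tested there, CD3E and ITGAM, were not called, at -0.34 and 0.19. In SCC15 the endothelial sum went from between 164 and 181 to between 66.1 and 77.5, and the leukocyte sum from between 499.9 and 543 to between 319.9 and 508. The endothelial sum there was mostly PECAM1, which went from a mean of 166 to 72.0, and CDH5 and KDR were not listed. The leukocyte sum there was mostly CD14, which went from a mean of 504 to 379 and was not called. The sum of 6 fibroblast markers went from between 582 and 639.9 to between 334 and 389 in SCC15, and was 209 to 220.4 against 188 to 208 in SCC25. The part of these markers in the falls of ID1 and SMAD6 was not tested.

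ID1 and SMAD6 were the members that fell furthest in both cell lines, and the 250 bases before their RefSeq transcription starts (GRCh38.p14, plus strand) are shown because both genes are known targets of BMP signalling. SKIL, whose response differed between the lines like that of every other member, is shown beside them. Capitals mark matches to any of 4 motifs searched on both strands, the palindromic SMAD binding element GTCTAGAC, the CAGA box CAGACA, the GC-rich SMAD motif GGCGCC and the cAMP response element TGACGTCA.
ID1, chr20:31605039-31605288: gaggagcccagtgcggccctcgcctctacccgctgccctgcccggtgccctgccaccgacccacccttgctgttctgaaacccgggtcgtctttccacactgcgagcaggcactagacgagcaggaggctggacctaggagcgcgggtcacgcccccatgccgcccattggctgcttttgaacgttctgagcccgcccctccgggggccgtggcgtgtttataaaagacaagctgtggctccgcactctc
SMAD6, chr15:66701986-66702235: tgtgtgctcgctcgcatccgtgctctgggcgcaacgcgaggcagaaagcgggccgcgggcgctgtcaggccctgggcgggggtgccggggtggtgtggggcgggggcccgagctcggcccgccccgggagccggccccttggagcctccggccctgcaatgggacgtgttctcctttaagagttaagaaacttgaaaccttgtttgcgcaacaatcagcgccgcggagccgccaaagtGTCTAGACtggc
SKIL, chr3:170357465-170357714: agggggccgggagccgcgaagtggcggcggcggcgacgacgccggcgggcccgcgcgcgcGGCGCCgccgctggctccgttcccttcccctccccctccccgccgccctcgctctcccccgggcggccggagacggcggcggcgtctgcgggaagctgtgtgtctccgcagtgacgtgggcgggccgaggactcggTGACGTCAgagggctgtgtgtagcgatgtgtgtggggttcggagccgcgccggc

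The SMAD6 window held the palindromic element, with its first base at -12, a motif found in 64 of 35116 RefSeq promoter windows of this length (0.182%). The SKIL window held the GC-rich motif at -190, present in 16.4% of windows, and the cAMP response element at -54, present in 1.65%. The ID1 window held none of the 4, which says only that these letters are not in these 250 bases. Over the 23 windows that RefSeq gives for the 9 genes, the CAGA box (13.6% of all windows) occurred in 4, those of SMAD3, TGFB2 and TGFBR1. These matches describe the sequence and are not evidence of binding.

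To see how ACGs moved the pathway, each cell line was fitted separately with limma, using log2(normalized count + 1) of treated and DMSO libraries, and a gene was called when its p-value, adjusted by Benjamini-Hochberg over all genes tested, was under 0.05. In SCC15, 2 members were called higher, TGFB1 and SMAD7, in a table where 30.9% of 15902 genes tested were called higher. The 5 called lower were SMAD6, ID1, TGFB2, TGFBR2 and TGFBR1, beside 30.0% of all genes. In SCC25, TGFB1, TGFBR1, SMAD7 and SKIL were called higher (38.3% of 16539 genes), and ID1, SMAD6, TGFB2 and SMAD3 lower (38.5%). The members' median log2 fold change was -0.44 in SCC15 and -0.08 in SCC25, against 0.012 and -0.015 over all genes. Most genes tested in each line were called in one direction or the other, so the count of members called says little by itself, and the sizes and directions are given member by member.

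**Figure D1:**
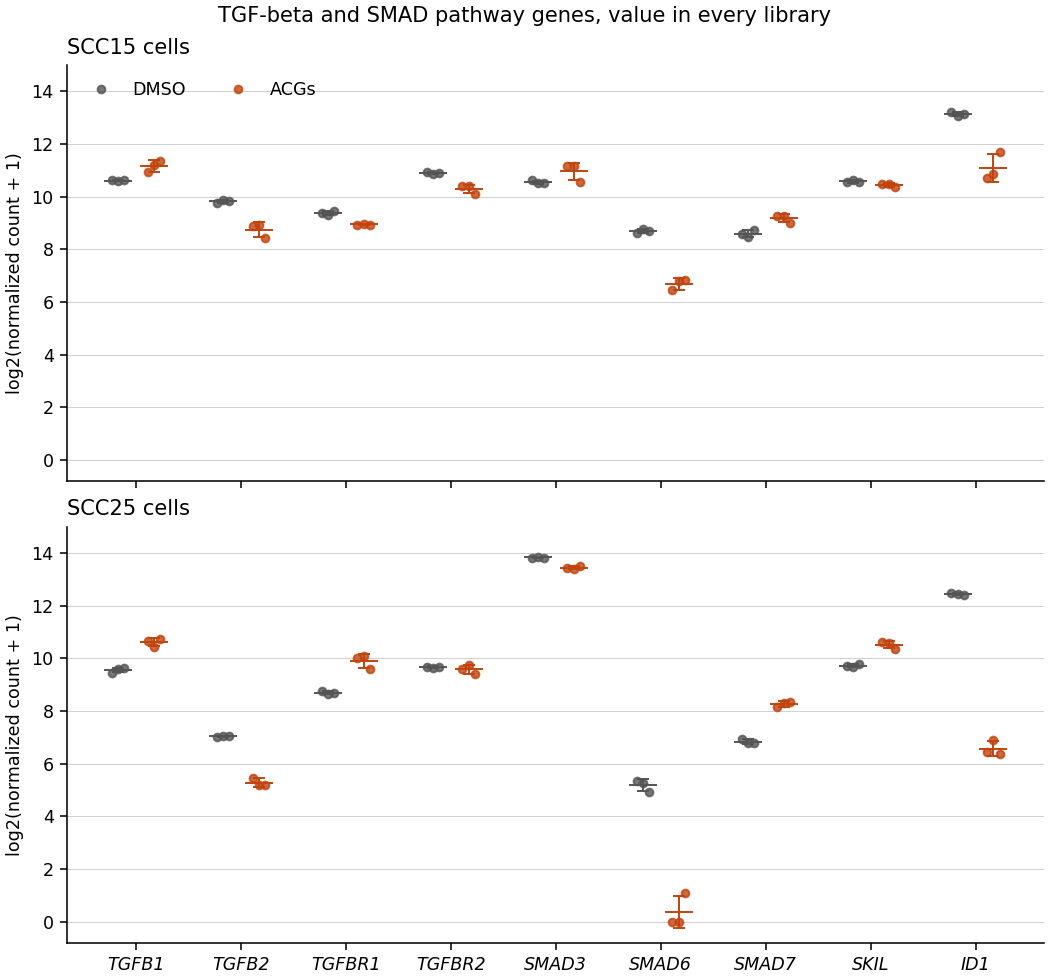
Values of the 9 genes in each library as log2(normalized count + 1), SCC15 above and SCC25 below, DMSO in grey and ACGs in orange, with the mean and SD of 3 libraries beside the points. ID1 fell from a mean of 5615 to 95.6 normalized counts in SCC25, and SMAD6 there ended at 0, 0 and 1.11.

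The normalization carries weight in SCC15. With library totals set equal in place of the authors' size factors, the median of all genes moved to -0.50 in SCC15, -0.23 in SCC25 and -0.28 for the difference between them. In SCC15, 2336 genes were then called higher and 8179 lower instead of 4921 and 4773. In SCC25 the split became 5021 and 7896 instead of 6335 and 6367. Under that scale 6 members of SCC15 were called lower and 0 higher, and the SCC25 calls were 4 up and 5 down. Changes below are relative to the authors' scale, on which the median gene hardly moved.

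Of the ligands, TGFB1 rose and TGFB2 fell in both cell lines on the authors' scale. TGFB1 (ENSG00000105329; chr19:41301587-41353911, minus strand) encodes the ligand most widely made by epithelium. In SCC15 its normalized counts were 1578, 1548 and 1577 with DMSO and 1961, 2340 and 2638 with ACGs, so every treated library lay above every control and the treated ones were the more spread. The log2 fold change was 0.55 ± 0.12 (SE, adjusted p = 0.00495, limma), but with equal library totals it was 0.053 and no longer called (adjusted p = 0.61, limma). In SCC25, which was scaled separately, TGFB1 went from 701, 772 and 791 to 1627, 1388 and 1725, a larger change on the log2 scale. Here the groups were well separated and the log2 fold change was 1.06 ± 0.078 (SE, adjusted p = 6.85e-08, limma). In the deposited coordinates TGFB1 overlaps CCDC97, TMEM91 and HNRNPUL1 on the opposite strand, and the strand setting of the counting is not given in the sources used here, so reads of these genes cannot be told apart from its own where exons overlap. HNRNPUL1, the most abundant of them, went from a mean of 6440 to 5876 in SCC15 and from 6541 to 4821 in SCC25, and CCDC97 from 855 to 462 and from 819 to 444. TMEM91 went up like TGFB1, from 89.0 to 186 and from 88.6 to 201, and its part in the rise of TGFB1 was not tested.

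TGFB2 (ENSG00000092969; chr1:218346235-218444619, plus strand), a ligand that needs the co-receptor betaglycan to bind TGFBR2 well, stood at 874, 938 and 918 with DMSO in SCC15 and at 472, 483 and 341 with ACGs. The treated libraries were all below the controls, replicate 3 the lowest. Its log2 fold change was -1.09 ± 0.14 (SE, adjusted p = 5.98e-04, limma), and -0.93 without SCC15 ACGs replicate 3. In SCC25 TGFB2 stood at 128, 131 and 132 with DMSO, and it fell to 43.2, 35.4 and 35.5. That is a log2 fold change of -1.76 ± 0.16 (SE, adjusted p = 4.52e-07, limma) with no overlap between groups.

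The balance of the 2 ligands was also read within each library, since such a ratio does not depend on how libraries are scaled. In SCC15 log2 TGFB2 over TGFB1 was -0.85, -0.72 and -0.78 with DMSO and -2.06, -2.28 and -2.95 with ACGs, a mean difference of -1.64, or -1.38 without ACGs replicate 3. In SCC25 it was -2.45, -2.56 and -2.59 with DMSO and -5.23, -5.30 and -5.60 with ACGs, a difference of -2.85. In both lines the groups were apart, and the two-sided exact permutation test gave p = 0.1, the smallest that 3 libraries against 3 allow, so neither ratio could pass 0.05 whatever its size.

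The receptors parted by cell line. TGFBR1 (ENSG00000106799; chr9:99104038-99154192, plus strand), the type I receptor kinase, was the member called in opposite directions, a pattern seen in 10.1% of the 14454 genes tested in both lines. In SCC15 it went from 670, 638 and 697 with DMSO to 483, 504 and 486 with ACGs, a tight group below all controls, with a log2 fold change of -0.44 ± 0.084 (SE, adjusted p = 0.0031, limma). In SCC25 it went from 437, 400 and 410 to 1022, 1099 and 775, so that even the lowest treated library lay above the highest control, and the log2 fold change was 1.20 ± 0.11 (SE, adjusted p = 4.34e-07, limma).

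TGFBR2 (ENSG00000163513; chr3:30606502-30694142, plus strand), the type II receptor that binds the ligand, fell in SCC15 from 1953, 1863 and 1932 to 1345, 1346 and 1112. The groups did not overlap, and the log2 fold change was -0.60 ± 0.10 (SE, adjusted p = 0.00166, limma). In SCC25 the values were 824, 799 and 827 with DMSO and 779, 857 and 684 with ACGs, with the highest library and the lowest both treated. The log2 fold change of -0.08 ± 0.076 (SE) was not called (adjusted p = 0.33, limma), turned to 0.0014 without SCC25 ACGs replicate 3, and was called at -0.29 with equal library totals (adjusted p = 0.0029, limma). Within libraries log2 TGFBR1 over TGFBR2 rose in SCC25 from -0.92, -0.997 and -1.01 to 0.39, 0.36 and 0.18, that is, by 1.29 (exact permutation p = 0.1). In SCC15 it was -1.54, -1.55 and -1.47 with DMSO and -1.48, -1.42 and -1.19 with ACGs, overlapping groups with a difference of 0.16 (exact permutation p = 0.2), or 0.073 without ACGs replicate 3.

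SMAD3 (ENSG00000166949; chr15:67063763-67195195, plus strand) carries the TGF-beta signal to DNA. Its normalized counts were far higher in SCC25, though the lines were scaled separately and levels were not tested across them. There SMAD3 fell from 14523, 14970 and 14556 to 11025, 10956 and 11737. The fall was modest but every treated library was below the controls, with a log2 fold change of -0.39 ± 0.039 (SE, adjusted p = 1.39e-06, limma). In SCC15 the controls were 1572, 1452 and 1481, and the treated libraries 2287, 2276 and 1522. Replicates 1 and 2 lay well above the controls and replicate 3, the library that stands apart, lay among them. The log2 fold change of 0.41 ± 0.16 (SE) was therefore not called (adjusted p = 0.059, limma). Without SCC15 ACGs replicate 3 it was 0.60 and called (adjusted p = 9.50e-10, limma), while with equal library totals it was -0.088 and not called (adjusted p = 0.74, limma). Both antisense genes that overlap SMAD3 had means under 15 normalized counts. In SCC25 AC012568.1 went from 14.1 with DMSO to 0.69 with ACGs, and AC087482.1 from 10.1 to 3.10. In SCC15 they went from 1.66 to 1.15 and from 4.49 to 3.11. Their part in the change of SMAD3 was not tested.

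The inhibitory SMADs, which block receptors and SMAD complexes from within the cell, moved apart from each other in both lines. SMAD6 (ENSG00000137834; chr15:66702228-66782848, plus strand), which acts mainly on BMP signals, stood in SCC15 at 397, 435 and 416 with DMSO and 85.8, 109 and 112 with ACGs. The groups were widely separated, with a log2 fold change of -2.02 ± 0.14 (SE, adjusted p = 3.71e-05, limma), the 572nd largest fall among 15902 genes. In SCC25, where SMAD6 was scarce to begin with, values of 39.5, 37.8 and 29.2 gave way to 0, 0 and 1.11. These are 124 reads over the controls and 1 read over the treated libraries, a 94.3-fold lower level with a 95% exact interval of 16.6 to 3756 that covers counting error only. The fitted log2 fold change was -4.82 ± 0.50 (SE, adjusted p = 1.76e-06, limma), and it depended on the pseudocount, at -7.26 with 0.1 and -2.13 with 10, called each time.

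SMAD7 (ENSG00000101665; chr18:48919853-48952052, minus strand), which holds the TGF-beta receptor back and is itself induced by the pathway, rose in SCC15 from 380, 355 and 428 to 621, 616 and 518. The treated libraries all lay above the controls, with a log2 fold change of 0.59 ± 0.12 (SE, adjusted p = 0.00376, limma), which became 0.094 and was not called with equal library totals (adjusted p = 0.63, limma). In SCC25 the library values were 122, 109 and 111 with DMSO and 281, 314 and 328 with ACGs. This was a larger change on the log2 scale than in SCC15. Set against SMAD3 within each library, log2 SMAD7 over SMAD3 rose in SCC25 from -6.90, -7.10 and -7.04 to -5.29, -5.12 and -5.16, a gain of 1.82 (exact permutation p = 0.1). In SCC15 the same ratio was -2.05, -2.03 and -1.79 against -1.88, -1.89 and -1.56, overlapping groups with a difference of 0.18 (exact permutation p = 0.3), or 0.073 without ACGs replicate 3.

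The 5 protein-coding genes whose pattern over the 12 libraries was most like that of SMAD7, after the DMSO mean of each line was taken off, were NECAP1 (Pearson r = 0.993), SLC26A6 (0.991), SLC19A2 (0.991), CORO6 (0.991) and ZBTB43 (0.990), out of 9697 genes compared. The 12 points share 1 treatment contrast and 2 control groups, so these values describe likeness and no more.

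SKIL (ENSG00000136603; chr3:170357678-170396835, plus strand), also called SnoN, is a co-repressor that binds SMAD complexes on DNA. In SCC15 it was at 1513, 1604 and 1489 with DMSO and 1443, 1413 and 1316 with ACGs. The groups did not overlap, yet the log2 fold change of -0.14 ± 0.082 (SE) was not called (adjusted p = 0.17, limma), and it was called at -0.64 with equal library totals (adjusted p = 0.0026, limma). In SCC25 SKIL rose from 841, 819 and 883 to 1584, 1531 and 1320, all treated libraries above the controls, with a log2 fold change of 0.80 ± 0.069 (SE, adjusted p = 3.13e-07, limma).

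ID1 (ENSG00000125968; chr20:31605283-31606515, plus strand) encodes an inhibitor of basic helix-loop-helix factors and is a classic BMP target, which TGF-beta can also repress. In SCC25 it was at 5795, 5633 and 5418 with DMSO and at 85.2, 120 and 82.2 with ACGs. The highest treated library was far under the lowest control, and the log2 fold change of -5.88 ± 0.11 (SE, adjusted p = 4.16e-13, limma) was the 24th largest fall among 16539 genes. In SCC15 ID1 went from 9441, 8642 and 8992 to 1694, 1877 and 3353. Replicate 3 kept the most ID1 of the treated libraries, still well below the controls, and the log2 fold change was -2.03 ± 0.24 (SE, adjusted p = 3.58e-04, limma), or -2.34 without that library. In bulk RNA such as this, fewer cells that express a gene and less RNA per cell cannot be told apart.

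**Figure D2:**
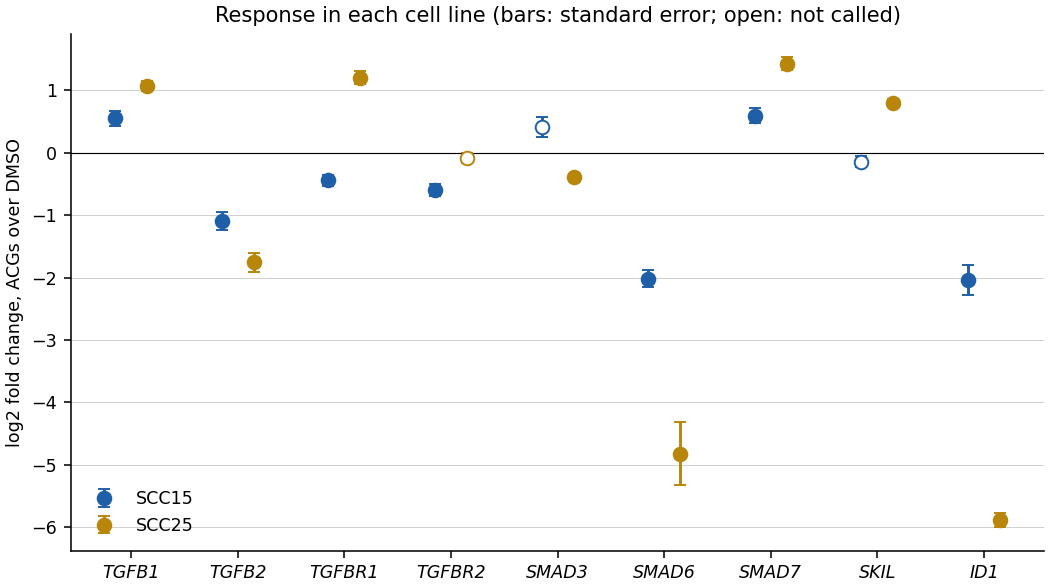
Log2 fold change of ACGs over DMSO for each gene in SCC15 (blue) and SCC25 (gold), with standard errors from limma, filled where called at an adjusted p under 0.05 and open where not. TGFB2, SMAD6 and ID1 lie below 0 in both lines, TGFB1 and SMAD7 above 0 in both, and TGFBR1 at -0.44 in SCC15 and 1.20 in SCC25.

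Next, the 2 responses were compared with each other in 1 fit over the 12 libraries. All 9 members differed between the cell lines at an adjusted p under 0.05, in a comparison in which 52.2% of 14454 genes did. The widest gap was that of ID1, whose response in SCC15 lay 3.85 log2 units above that in SCC25 ± 0.29 (SE, adjusted p = 4.94e-07, limma). SMAD6 followed with 2.80 ± 0.40 (SE, adjusted p = 7.63e-05, limma), a gap that shrank to 0.20 and was not called with a pseudocount of 10 (adjusted p = 0.43, limma). For TGFBR1 the difference was -1.64 ± 0.16 (SE, adjusted p = 3.11e-06, limma), the lower response being that of SCC15. SKIL and SMAD7 also responded less in SCC15, by -0.94 and -0.83 (SE 0.11 and 0.15, adjusted p = 1.89e-05 and 5.95e-04, limma).

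The other 4 gaps were smaller. SMAD3 differed by 0.80 ± 0.18 (SE, adjusted p = 0.0022, limma) and TGFB2 by 0.67 ± 0.19 (SE, adjusted p = 0.0104, limma), and with equal library totals neither was called, at 0.51 (adjusted p = 0.095, limma) and 0.38 (adjusted p = 0.21, limma). TGFBR2 differed by -0.52 ± 0.13 (SE, adjusted p = 0.00544, limma) and TGFB1 by -0.51 ± 0.15 (SE, adjusted p = 0.0127, limma). Of the members, 3 were called lower in both lines (18.6% of all genes tested in both) and 2 higher in both (22.1%). Groups did not overlap for 8 members in SCC15, with SMAD3 the exception, and for 8 in SCC25, with TGFBR2 the exception, where 70.6% and 79.0% of all genes did not overlap.

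Levels of different genes were set side by side as normalized counts per kilobase of annotated exons, as a description without a test. With DMSO, ID1 led in both lines, at 7320 ± 325 (SD, n = 3) per kilobase in SCC15 and 4554 ± 153 (SD, n = 3) in SCC25. SMAD3 came second in SCC25, at 1467 ± 24.8 (SD, n = 3), but sixth in SCC15, at 150.0 ± 6.29 (SD, n = 3), where it overlapped TGFB2 just above it at 150.5 ± 5.41 (SD, n = 3). SMAD6 was the lowest member in all 4 groups, from 48.6 ± 2.23 (SD, n = 3) per kilobase in SCC15 with DMSO down to 0.0433 ± 0.0749 (SD, n = 3) in SCC25 with ACGs.

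With ACGs the order changed most in SCC25. ID1 dropped from the first place to the seventh, at 77.6 ± 16.9 (SD, n = 3) per kilobase, where its range overlapped that of SMAD7 at 77.9 ± 6.08 (SD, n = 3). SMAD3 then led at 1123 ± 43.2 (SD, n = 3), ahead of TGFB1 at 484 ± 53.1 (SD, n = 3) and SKIL at 182 ± 17.2 (SD, n = 3), and TGFBR1 at 121 ± 21.2 (SD, n = 3) overlapped TGFBR2 at 113 ± 12.6 (SD, n = 3). In SCC15 ID1 still led with ACGs, at 1872 ± 738 (SD, n = 3), followed by TGFB1 at 709 ± 104 (SD, n = 3). SMAD3, TGFBR2 and SKIL overlapped one after another, between 203 ± 43.8 (SD, n = 3) and 171 ± 8.17 (SD, n = 3). TGFB2 and TGFBR1 also overlapped there, at 71.4 ± 13.1 and 61.5 ± 1.38 (SD, n = 3). With DMSO the neighbours whose ranges overlapped were TGFB2 and SMAD3 in SCC15. The order depends on the length used. With the length of the main transcript SMAD6, at 109 per kilobase, overlapped TGFBR1, at 103, in SCC15 with DMSO and was no longer the lowest. SMAD3, at 232, then stood above SKIL at 215 and TGFB2 at 155 in that group, without overlap. In SCC25 with ACGs, TGFBR2 at 171 then stood above TGFBR1 at 149, and ID1 at 97.3 above SMAD7 at 92.0, both pairs overlapping.

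The wider pathway was read over 6 lists of genes grouped by role, which include the members. Their counts stand beside 30.9% of all genes called higher and 30.0% lower in SCC15, and 38.3% and 38.5% in SCC25. A count near these shares says little about a list. Among 14 ligand and latency genes, 12 were tested in each line. In SCC15 5 were called higher and 4 lower, with a median log2 fold change of -0.08, and in SCC25 5 higher and 7 lower with a median of -0.98. With equal library totals the SCC15 counts were 3 and 6. GDF15, a stress-induced relative of TGF-beta, rose most, from 32.4 ± 3.89 to 656 ± 179 normalized counts (SD, n = 3) in SCC15 and from 3333 ± 39.0 to 14247 ± 1070 (SD, n = 3) in SCC25. TGFB3, the remaining TGF-beta ligand, fell alongside TGFB2, from 142 ± 22.8 to 38.8 ± 2.52 (SD, n = 3) and from 61.0 ± 5.87 to 23.9 ± 5.61 (SD, n = 3), with log2 fold changes of -1.84 and -1.34 (adjusted p = 1.35e-04 and 1.81e-04, limma).

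BMP7, a BMP ligand, was called lower at -0.44 in SCC15 (adjusted p = 0.0496, limma). That call was lost when any library other than SCC15 ACGs replicate 3 was left out. It was also lost with no filter, with a minimum of 10 in every library and with the replicate block (adjusted p = 0.054, limma). In SCC25 BMP7 fell to 6.36, 0 and 5.55 from a mean of 19.8, a log2 fold change of -2.51 (adjusted p = 0.0043, limma), or -1.58 without ACGs replicate 2, the library at 0.

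Of 12 receptor genes, 11 were tested in SCC15, where 1 was called higher and 8 lower (30.9% and 30.0% of all genes) with a median of -0.47. All 12 were tested in SCC25, where 3 were higher and 5 lower (38.3% and 38.5%) with a median of -0.02. Under equal library totals the SCC15 split was 0 and 10. ACVR2B, a type II receptor for activins, fell from 101 ± 11.9 to 31.4 ± 5.44 (SD, n = 3) in SCC15 (log2 fold change -1.66, adjusted p = 3.58e-04, limma) and from 180.1 ± 16.4 to 144 ± 13.4 (SD, n = 3) in SCC25 (log2 fold change -0.32, adjusted p = 0.0246, limma). The SCC25 call was lost without ACGs replicate 1, at -0.26, and without DMSO replicate 1 or 3, at -0.34 and -0.25. BMPR1A, a type I BMP receptor, fell by 1.25 and 0.54 on the log2 scale (adjusted p = 7.86e-05 and 9.77e-06, limma). ACVR1, another type I receptor, followed TGFBR1 in its signs, at -0.41 in SCC15 (adjusted p = 0.0129, limma), a call lost at -0.36 without DMSO replicate 2, and at 1.03 in SCC25 (adjusted p = 3.24e-07, limma).

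The receptor-regulated and common SMADs number 6. In SCC15 2 were called higher and 1 lower (30.9% and 30.0% of all genes), with a median of 0.19. In SCC25 3 were higher and 1 lower (38.3% and 38.5%), with a median of 0.41. With equal library totals the splits were 0 and 2, and 3 and 2. SMAD4, the common partner, rose from 954 ± 23.3 to 1245 ± 93.0 (SD, n = 3) in SCC15 (log2 fold change 0.38, adjusted p = 0.00751, limma), which turned to -0.12 with equal library totals, and from 260 ± 33.6 to 644 ± 51.1 (SD, n = 3) in SCC25 (log2 fold change 1.31, adjusted p = 8.33e-08, limma). SMAD2, the close relative of SMAD3, rose by 0.54 and 0.89 on the log2 scale (adjusted p = 0.0045 and 3.97e-08, limma), the former being 0.047 and not called with equal library totals.

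Of 13 inhibitors of SMAD signalling tested, 4 were called higher and 5 lower in SCC15 (1 and 9 with equal library totals), with a median of -0.25, where 30.9% and 30.0% of all genes were. In SCC25 10 were called higher and 3 lower (9 and 3 with equal library totals), with a median of 0.80, where 38.3% and 38.5% of all genes were. For 11 of the 13 the response was called lower in SCC15 than in SCC25, where 26.0% of all genes were. BAMBI, a decoy receptor, rose from 674 ± 31.8 to 1416 ± 359 (SD, n = 3) in SCC15 and from 2.88 ± 1.37 to 40.3 ± 6.55 (SD, n = 3) in SCC25. NOG, a secreted BMP antagonist at low level, fell from 64.9 ± 4.36 to 33.1 ± 8.15 (SD, n = 3) in SCC15 and rose from 4.62 ± 0.704 to 23.7 ± 7.39 (SD, n = 3) in SCC25. SKI, the sister of SKIL, fell in both, from 1194 ± 55.5 to 437 ± 99.7 and from 1682 ± 25.3 to 731 ± 57.8 (SD, n = 3), with log2 fold changes of -1.47 and -1.20 (adjusted p = 3.44e-04 and 2.25e-09, limma).

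Among 23 TGF-beta target genes, 19 were tested in SCC15, with 10 called higher and 3 lower (30.9% and 30.0% of all genes) and a median of 0.55. All 23 were tested in SCC25, with 14 higher and 8 lower (38.3% and 38.5%) and a median of 0.67. Equal library totals gave 8 and 6 in SCC15. BHLHE40, a transcriptional repressor, rose from 6761 ± 128 to 31775 ± 1736 (SD, n = 3) in SCC15 and from 2238 ± 52.3 to 21224 ± 555 (SD, n = 3) in SCC25. CDKN1A, which encodes the cell cycle inhibitor p21, rose by 1.25 and 2.81 on the log2 scale (adjusted p = 6.30e-05 and 1.13e-13, limma). TGFBI, an extracellular matrix protein named for its induction by TGF-beta, went from 2915 ± 80.4 to 6473 ± 469 (SD, n = 3) in SCC15 and from 5845 ± 81.9 to 895 ± 82.6 (SD, n = 3) in SCC25.

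Of 10 BMP target genes, 7 were tested in SCC15, with 2 called higher and 2 lower (30.9% and 30.0% of all genes) and a median of -0.08. In SCC25 8 were tested, with 4 higher and 3 lower (38.3% and 38.5%) and a median of 0.27. Equal library totals gave 1 and 3 in SCC15 and 3 and 3 in SCC25. ID2, a relative of ID1, went against it, from 74.7 ± 4.29 to 222 ± 55.0 (SD, n = 3) in SCC15 and from 7.17 ± 0.838 to 72.8 ± 15.2 (SD, n = 3) in SCC25, with log2 fold changes of 1.53 and 3.16 (adjusted p = 5.00e-04 and 2.66e-07, limma). ID1 and SMAD6 fell and SMAD7 and ID2 rose in both lines, so the list had no shared direction.

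**Figure D3:**
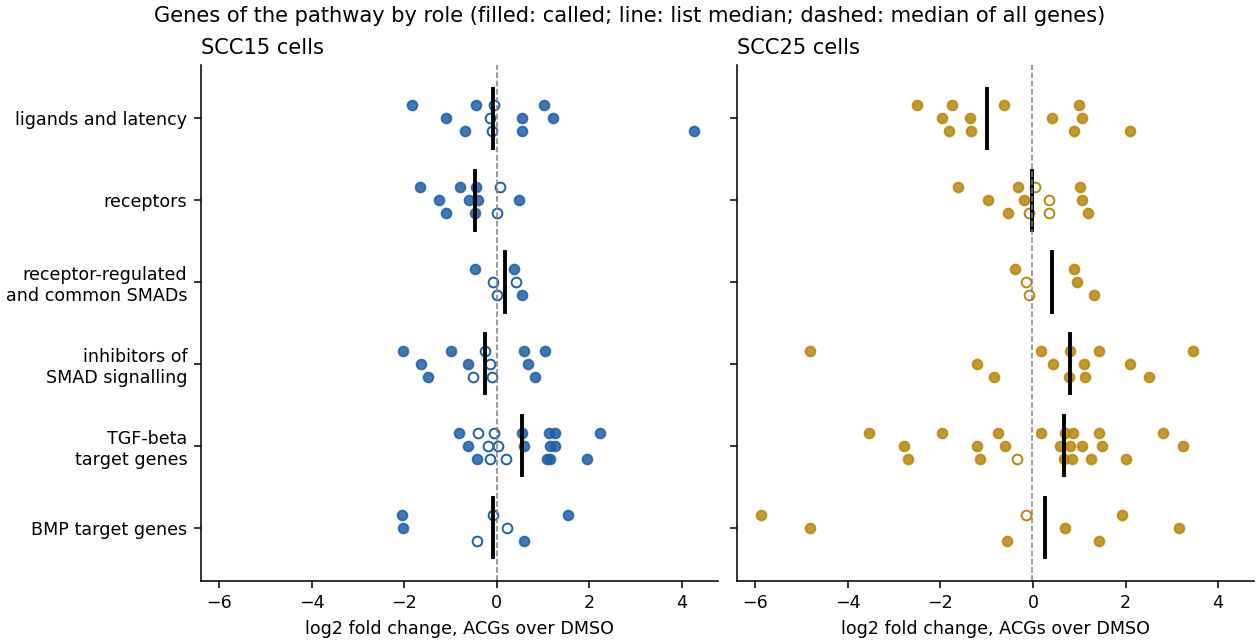
Log2 fold change of ACGs over DMSO for each tested gene of the 6 lists in SCC15 (left) and SCC25 (right), filled where called, with the list median as a black bar and the median of all genes as a dashed line. Inhibitors of SMAD signalling have a median of -0.25 in SCC15 and 0.80 in SCC25, and every list spreads to both sides of 0 in both lines.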

How the data were processed

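Total RNA of 12 libraries was sequenced, and per the labels reads were aligned with HISAT2 2.0.5 to GRCh38 and counted with featureCounts 1.5.0-p3. For each library the authors scaled the counts by a size factor, working on 1 cell line at a time, and this scaled signal is what they deposited, so levels were not tested across lines. The SCC25 columns are named fpkm, but their values are not divided by gene length and are given here as normalized counts. The tables also hold the authors' own fold changes and p-values, which were not used. Values times the recovered size factor came out whole (within 0.05) for 100% of genes, and 0 sample columns were left out.

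Within a line, genes averaging 10 or more across its 6 libraries were fitted with limma 3.58.1 (R 4.3.3, eBayes with a trend) on log2(value + 1), so fold changes of low genes are understated. The difference of responses used all 12 libraries and 4 group means. Fits were tested on simulated data with far fewer changed genes than these, the same variability for every gene and no library set apart. That test therefore does not cover a library like SCC15 ACGs replicate 3. Alternatives were other pseudocounts and filters, TMM factors, equal library totals, each library left out, the replicate block, and count models of the recovered reads (edgeR 4.0.16, DESeq2 1.42.0). For SCC15, 4712 genes rose and 5168 fell with edgeR, 5067 and 4897 with DESeq2. For SCC25 the numbers were 6298 and 6506 with edgeR, 6093 and 6103 with DESeq2.

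The members and gene lists were chosen with earlier results of these data known. Beside the 9 members, the text names up to 4 genes per list, those called in both lines with the largest mean absolute log2 fold change, and the 5 genes most correlated with SMAD7 among those with a mean of at least 100 in both tables. A gene that this rule also names is not reported here. Genes noted for overlap or as markers of cell identity are further exceptions, named after their values were seen. Promoter sequences are RefSeq's, exon lengths GENCODE 44's.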

Additional observations from a re-analysis of the deposited data

Results flagged for a closer look

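The response to ACGs differed between SCC15 and SCC25 by a test of the difference itself (limma, adjusted p under 0.05) for all 9 members and for 13 other genes named from the lists. Those others had been picked for large responses in both lines, so their number is not to be read against the 52.2% of all genes. It was not called for TGFB3, at -0.49 (adjusted p = 0.16, limma), or SKI, at -0.27 (adjusted p = 0.26, limma). Values are SCC15 minus SCC25 on the log2 scale, so a positive value means that the gene rose more, or fell less, in SCC15.

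Among the members the difference was 3.85 for ID1, 2.80 for SMAD6, 0.80 for SMAD3 and 0.67 for TGFB2, and -1.64 for TGFBR1, -0.94 for SKIL, -0.83 for SMAD7, -0.52 for TGFBR2 and -0.51 for TGFB1. SMAD6 fell in both lines, to 1 read over 3 libraries in SCC25, and its difference ran from 0.20 with a pseudocount of 10 to 5.23 with a pseudocount of 0.1. The sign of the response itself was opposite in the 2 lines for TGFBR1, which was called in both.

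Among the other ligands the difference was 2.18 for GDF15 (adjusted p = 3.25e-06, limma) and 2.08 for BMP7 (adjusted p = 0.042, limma). The BMP7 call was lost with a pseudocount of 0.1, with equal library totals and when SCC15 ACGs replicate 2 or any one of the 6 DMSO libraries was left out, with adjusted p up to 0.108. Its size fell to 1.14 without SCC25 ACGs replicate 2, the library at 0, and to 0.71 with a pseudocount of 10, still called in both. Among receptors it was -1.33 for ACVR2B, -0.71 for BMPR1A and -1.44 for ACVR1. SMAD4 differed by -0.93 and SMAD2 by -0.35 (adjusted p = 0.042, limma), and the SMAD2 call was lost without a filter and in 9 of the 12 fits that leave out 1 library, with adjusted p up to 0.106.

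For the inhibitors BAMBI and NOG the difference was -2.41 and -3.07. For the target genes it was 3.86 for TGFBI, -1.01 for BHLHE40, -1.56 for CDKN1A and -1.63 for ID2. BAMBI, NOG and ID2 were scarce with DMSO in SCC25, at means of 2.88, 4.62 and 7.17, so the sizes are uncertain. Over the alternatives the difference ran from -2.80 to -0.93 for BAMBI, -3.37 to -1.99 for NOG and -1.93 to -0.83 for ID2. TGFBI and NOG, like ACVR1, were called in opposite directions in the 2 lines. SMAD4, CDKN1A, BHLHE40, BAMBI and ID2 rose in both and rose more in SCC25 on the log2 scale. SMAD4 in SCC15 turned to -0.12, not called, with equal library totals.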

How the results depend on the processing

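The number of members called higher in SCC15 was 2 and fell to 0 with equal library totals, which moved the median of all genes to -0.50. With each library left out in turn it ran from 2 to 3, while 5 members stayed lower in SCC15, 4 higher and 4 lower in SCC25 and 9 called in the difference in each such fit. SMAD3 and SMAD4 in SCC15 changed sign with equal library totals, to -0.088 and -0.12, and TGFBR2 in SCC25 did so without SCC25 ACGs replicate 3, to 0.0014, its range over the libraries left out being -0.16 to 0.0014. None of these 3 reversed values was called. SMAD3 in SCC15 was called with DESeq2 (adjusted p = 0.044), with the replicate block (adjusted p = 0.048, limma) and without SCC15 ACGs replicate 3. With each library left out the ligand ratio ran from -1.83 to -1.38 in SCC15 and -2.92 to -2.73 in SCC25, the receptor ratio from 0.073 to 0.21 and 1.24 to 1.35, and SMAD7 over SMAD3 from 0.073 to 0.27 and 1.77 to 1.88. Deviations of same-numbered libraries correlated between -0.051 and 0.0078. This gives no sign that replicate numbers pair the libraries, but with 3 per group it cannot exclude a pairing. With the replicate block 3 members were called higher and 5 lower in SCC15, 4 and 4 in SCC25, and 9 in the difference. The block ended the calls of BMP7 in SCC15 (adjusted p = 0.054, limma) and of the SMAD2 difference (adjusted p = 0.063, limma), and left 0 receptors higher in SCC15 in place of 1. At 1 read over 3 libraries, depth limits the size of the SMAD6 change in SCC25.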
